A study of Arabidopsis thaliana and Cucumis sativus and Glycine max with 60 samples.

Results

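The 10 genes described here are Arabidopsis thaliana transcription factor genes of the network that controls xylem fate. They are the VASCULAR-RELATED NAC-DOMAIN genes VND1 to VND7, the NAC gene VNI2 (VND-INTERACTING 2) and the R2R3-MYB genes MYB46 and MYB83. All 10 are called switches here for short, although VNI2 is a repressor of VND activity. They were chosen by name, through their locus identifiers, and all 10 were found among the 33550 Arabidopsis rows of a table with 311875 gene rows. The study sequenced mRNA from zones cut along the primary root tip of seedlings of 7 vascular plants. The Arabidopsis groups were the meristematic zone (MZ), where cells divide, the elongation zone (EZ) and the differentiation zone (DZ), all from cultivar Columbia, 4 days after plating and grown on agarose medium in continuous light. No genotype or treatment differed between them. Each zone was sampled in 3 libraries, described in the design text as biological replicates; the sources used here do not say how many roots went into a library.

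Vessel elements of the xylem are dead, hollow cells with a patterned secondary wall of cellulose, xylan and lignin. NAC proteins of the VND family act as master switches that can turn other cells into vessel elements when overexpressed: VND7 is known for the protoxylem and VND6 for the metaxylem of the root. VNI2 binds VND proteins and represses their activity, while MYB46 and MYB83 are direct targets of the NAC switches and redundantly turn on the genes that make the secondary wall.

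Levels are the authors' RPKM, read numbers scaled to gene length and to the depth of the library. From the lowest values, 1 read on a gene of 1 kilobase was worth 0.132 to 0.144 RPKM in the 3 libraries numbered 1 and 0.0398 to 0.0521 RPKM in the other 6, which corresponds to about 6.92 to 7.57 and 19.2 to 25.1 M reads. EZ replicate 3 stood apart from the other EZ libraries: on a line from the mean MZ library (0) to the mean DZ library (1), over 19640 genes, the EZ replicates 1 to 3 lay at 0.365, 0.371 and 0.7. The summed markers of other cell types also differed between the zones. The 5 endodermal genes CASP1 to CASP5 summed to 7.72 to 49.6 RPKM in MZ, 58.6 to 874 RPKM in EZ and 4883 to 10950 RPKM in DZ, and 4 root hair genes to 2.37 to 9.01, 86.5 to 397 and 872 to 1102 RPKM. Phloem markers (APL, SUC2, SEOR1, CALS7) summed to 4.71 to 5.97 RPKM in MZ, 9.41 to 20.3 RPKM in EZ and 21.6 to 44.2 RPKM in DZ. The zone means of SUC2 and SEOR1 rose from MZ to DZ. APL averaged 7.27 RPKM in EZ and 6.28 RPKM in DZ, and CALS7 was lowest in EZ, at 0.977 RPKM. In contrast, 4 genes of dividing cells summed to 225 to 289, 9.70 to 45.7 and 5.27 to 39.0 RPKM in MZ, EZ and DZ. The root cap genes SMB, BRN1 and BRN2 summed to 19.3 to 81.3, 0.369 to 2.42 and 0.0377 to 6.18 RPKM; BRN1 and BRN2 were listed at 0 in DZ replicates 2 and 3 and the meristem gene PLT1 in DZ replicate 3, and no other marker was listed at 0. Within DZ, every listed gene of dividing cells and of the root cap was highest in replicate 1. The dividing cell gene KNOLLE, for example, had 15.2 RPKM there, against 4.97 and 1.13 RPKM in DZ replicates 2 and 3. The part of these shifts in the results was not tested. In bulk samples fewer cells of a type and less RNA per cell cannot be told apart.

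The calls along the root were not the same for all switches, and differences between genes were not tested. VNI2 and MYB46 were lowest in MZ and were called higher in each later zone. VND4, VND7 and MYB83 were called higher in EZ than in MZ, and their difference between DZ and EZ did not pass the test. This grouping depends on single libraries. Without EZ replicate 3, MYB83 was called in DZ against EZ and no longer in EZ against MZ, and VND7 lost its call. MYB46 lost its DZ against EZ call in 4 of the 9 fits without 1 library. VND1, VND2, VND3 and VND5 were called in no comparison, and VND6 was listed at 0 throughout MZ and was highest in DZ. VNI2 and all VND genes except VND6 had values above 0 in every MZ library. Changes were tested with limma on log2(RPKM + 1), in which a difference of low levels is understated, for the 19640 genes that reached 1 RPKM in 3 or more of the 9 libraries. Calls needed an adjusted p under 0.05, over all genes tested, together with a 2-fold or larger difference on that scale. Of the 10 switches, 9 were tested, and VND6, with 2 libraries at or above 1 RPKM, was not.

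In EZ against MZ, 5 of the 9 tested switches were called higher and 0 lower, where 18.3% of all tested genes were called higher and 20.4% lower. The median log2 difference was 1.04 over the tested switches and 0.03 over all tested genes. In DZ against EZ, 2 switches were called higher and 0 lower, against 19.6% and 16.4% of all tested genes, and the medians were 0.44 and -0.13. In DZ against MZ, 5 were called higher and 0 lower, against 29.8% and 32.3%, and the medians were 1.65 and -0.16. At an unadjusted p under 0.05 in limma, 8, 3 and 7 switches were higher in the 3 comparisons and 0, 1 (VND3) and 0 lower. MYB46, MYB83, VND5 and VND7 passed the filter through EZ and DZ libraries alone, so these counts describe the genes and give no support of their own. Without EZ replicate 3, 3 switches were called in EZ against MZ and 3 in DZ against EZ. The count in DZ against EZ was 1 without EZ replicate 1, EZ replicate 2, DZ replicate 2 or DZ replicate 3, because MYB46 then missed the threshold.

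**Figure D1:**
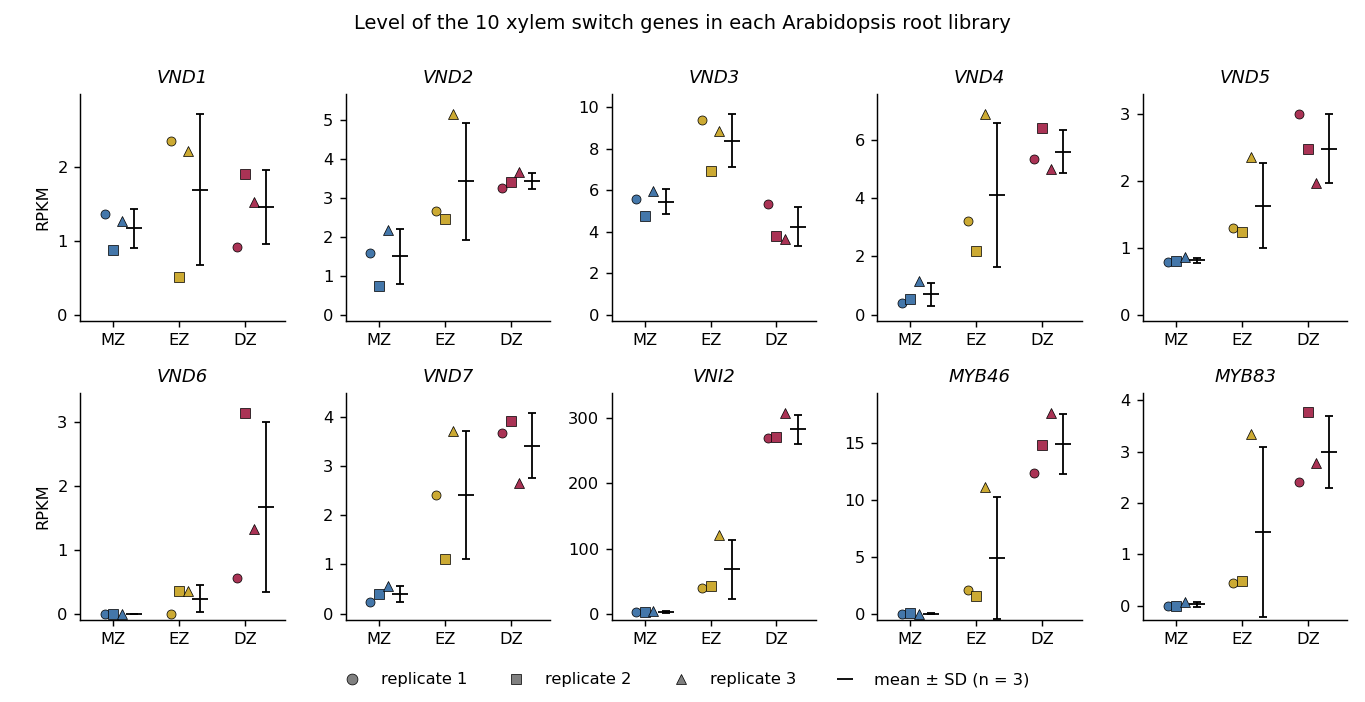
RPKM of each of the 10 genes (vertical axes start below 0, a scale for each gene) in the 3 libraries of MZ, EZ and DZ, with a symbol for each replicate number and the mean ± SD beside them. VNI2 stands at 2.06 to 4.54 RPKM in MZ, 40.2 to 121 RPKM in EZ and 269 to 308 RPKM in DZ, VND3 is highest in EZ, and the EZ point of replicate 3 (triangle) is the highest EZ point in 7 of the 10 panels.

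**Figure D2:**
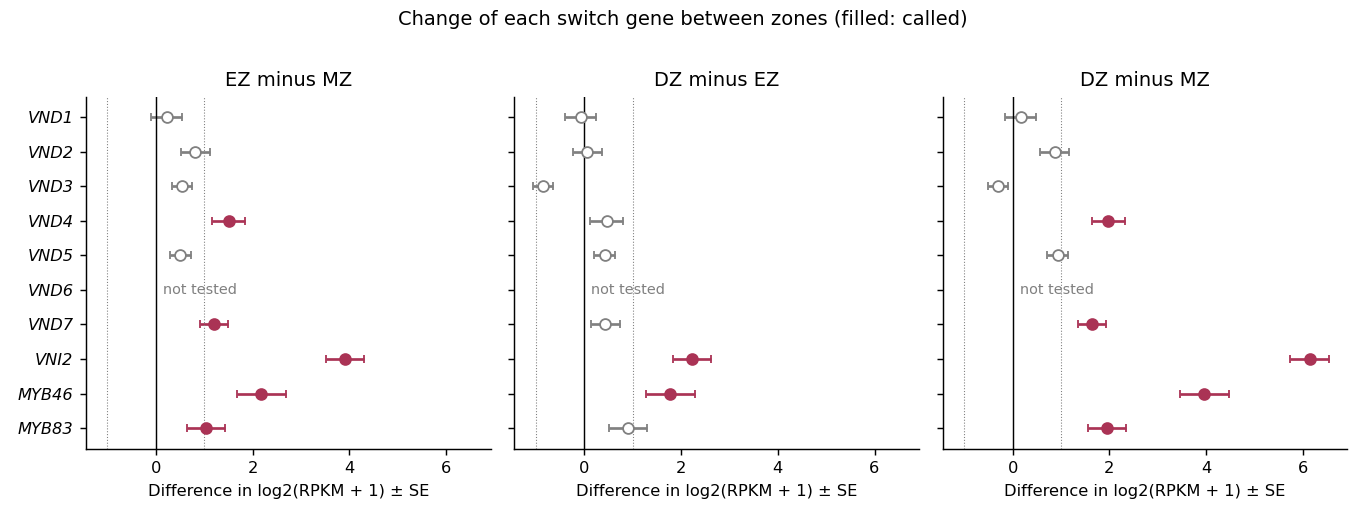
Difference in log2(RPKM + 1) with its limma standard error for each gene in EZ minus MZ, DZ minus EZ and DZ minus MZ; filled points were called, dotted lines mark 2-fold, and VND6 was not tested. VNI2 has the largest difference in each panel (3.91, 2.23 and 6.14) on this scale, while with a pseudocount of 0.1 MYB46 exceeds it in EZ minus MZ and DZ minus MZ; VND3 is the gene furthest below 0, at -0.85 in DZ minus EZ.

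The 10 genes lie on all 5 Arabidopsis chromosomes. The labels name the TAIR10 annotation, and the coordinates here are those of the RefSeq annotation of TAIR10.1. There VND1 (AT2G18060) is at chr2:7847967-7851606 on the minus strand, VND2 (AT4G36160) at chr4:17110645-17114141 (minus), VND3 (AT5G66300) at chr5:26479766-26481528 (minus), VND4 (AT1G12260) at chr1:4162826-4165928 (minus) and VND5 (AT1G62700) at chr1:23215953-23219209 (minus). VND6 (AT5G62380) is at chr5:25050152-25052054 (plus), VND7 (AT1G71930) at chr1:27074702-27077991 (plus) and VNI2 (AT5G13180) at chr5:4196256-4197940 (plus). MYB46 (AT5G12870) is at chr5:4062666-4065075 (minus) and MYB83 (AT3G08500) at chr3:2576444-2578276 (minus). These spans run from the first to the last annotated exon. The sources used here do not say whether the libraries kept strand, so reads in a stretch shared with another gene could not be assigned with certainty. VND6 shares 77 bases with BAG7 on the other strand, which averaged 192 RPKM in MZ, 139 RPKM in EZ and 52.7 RPKM in DZ. VND2 shares 270 bases with AT4G36170, whose zone means were at most 4.19e-07 RPKM, and VND5 and VNI2 share 148 and 306 bases with noncoding genes that have no row in the table.

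The closest pairs in coding sequence were VND4 and VND5, identical at 82.8% of aligned bases, and VND1 and VND2, at 80.7%; MYB46 and MYB83 were identical at 69.8%, and all other pairs at 74.4% or less. The longest stretches that both genes of these pairs share base for base are printed here because reads that lie wholly inside one cannot be told apart by sequence; all letters are shared, so none is in capitals.
VND4 and VND5: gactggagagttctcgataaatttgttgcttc
VND1 and VND2: gaaacttggagctcaagttacttttacga
MYB46 and MYB83: aatggacaaggatgttggagtga
They are 32, 29 and 23 bases long. Whether any read was short enough to lie wholly inside one was not examined. Other pairs share stretches of similar length, among them VND5 and VNI2 (26 bases) and VND7 and VNI2 (22 bases). The sources used here do not say how reads that fit more than 1 gene were counted.

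VND3 was the dominant VND gene of the meristem. It had 5.56, 4.77 and 5.95 RPKM in MZ replicates 1 to 3, 9.39, 6.93 and 8.83 RPKM in EZ and 5.31, 3.77 and 3.64 RPKM in DZ. All 3 EZ libraries lay above all others. The DZ and MZ ranges overlapped through DZ replicate 1 alone, and DZ replicates 2 and 3 lay below all MZ libraries. The log2 difference in DZ against EZ was -0.85 ± 0.21 (adjusted p = 0.0091), which passed the p threshold but stayed under 2-fold, and VND3 was not called in any of the 15 alternative settings. The EZ against MZ difference was 0.54 ± 0.21 (adjusted p = 0.0509) and the DZ against MZ difference -0.30 ± 0.21 (adjusted p = 0.203). VND3 was the member that stood lowest in DZ relative to EZ.

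VND1 and VND2, which act redundantly with VND3 in cotyledon vessels, were low in all zones. VND1 had 1.36, 0.872 and 1.27 RPKM in MZ, 2.35, 0.511 and 2.22 RPKM in EZ and 0.920, 1.91 and 1.53 RPKM in DZ, so that EZ replicate 2 was the lowest of all 9 libraries and EZ replicate 1 the highest. Its 3 differences were 0.23, -0.07 and 0.17 with a standard error of 0.32, and the smallest adjusted p was 0.55. VND2 had 1.58, 0.747 and 2.17 RPKM in MZ, 2.67, 2.45 and 5.16 RPKM in EZ and 3.26, 3.40 and 3.66 RPKM in DZ. Every EZ and DZ library of VND2 was above every MZ library. Its difference was 0.82 ± 0.30 in EZ against MZ (adjusted p = 0.0413) and 0.87 ± 0.30 in DZ against MZ (adjusted p = 0.0226), under 2-fold on the log2(RPKM + 1) scale in both. In RPKM the zone means were 1.5 in MZ, 3.43 in EZ and 3.44 in DZ. Without MZ replicate 3 both log2 differences were just over 2-fold on that scale, at 1.01 and 1.06, and VND2 was then called.

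VND4 and VND7 had the largest differences from MZ of the tested VND genes. VND4 had 0.398, 0.527 and 1.16 RPKM in MZ, 3.22, 2.2 and 6.90 RPKM in EZ and 5.36, 6.43 and 5 RPKM in DZ. VND7, the protoxylem switch, had 0.229, 0.404 and 0.567 RPKM in MZ, 2.40, 1.11 and 3.70 RPKM in EZ and 3.66, 3.92 and 2.66 RPKM in DZ. For both genes all EZ and DZ libraries were above all MZ libraries, and the EZ and DZ ranges overlapped.

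VND4 was called higher in EZ against MZ (log2 difference 1.51 ± 0.34, adjusted p = 0.00601) and in DZ against MZ (1.98 ± 0.34, adjusted p = 0.00065), and kept both calls in all 15 alternative settings. VND7 was called higher in EZ against MZ (1.21 ± 0.29, adjusted p = 0.00823) and in DZ against MZ (1.65 ± 0.29, adjusted p = 0.000791). Without EZ replicate 3 its EZ against MZ difference was 0.94 (adjusted p = 0.0161), under 2-fold on the log2(RPKM + 1) scale, and the call was lost. Without all 3 libraries numbered 3 the difference was 1.03 (adjusted p = 0.0237) and the call was kept. In DZ against EZ the differences of VND4 and VND7 were 0.47 ± 0.34 (adjusted p = 0.268) and 0.44 ± 0.29 (adjusted p = 0.235).

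VND5, the closest relative of VND4, had 0.788, 0.795 and 0.857 RPKM in MZ, 1.29, 1.24 and 2.36 RPKM in EZ and 3.00, 2.48 and 1.96 RPKM in DZ. The 3 MZ libraries were nearly equal and lay below all others, while EZ replicate 3 lay inside the DZ range. The difference in DZ against MZ was 0.93 ± 0.21 (adjusted p = 0.00312), just under 2-fold on the log2(RPKM + 1) scale. In RPKM the zone means were 0.813 in MZ and 2.48 in DZ. Without DZ replicate 3 the log2 difference was 1.04, which made it a call. In EZ against MZ it was 0.51 ± 0.21 (adjusted p = 0.0662) and in DZ against EZ 0.42 ± 0.21 (adjusted p = 0.127).

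VND6, the metaxylem switch, had the lowest mean of the VND genes in MZ and in EZ. It was listed at 0 in all 3 MZ libraries and in EZ replicate 1, at 0.362 and 0.349 RPKM in EZ replicates 2 and 3, and at 0.558, 3.14 and 1.32 RPKM in DZ replicates 1 to 3. All DZ libraries were above all EZ libraries, but the DZ values spread widely. With the gene length of the annotation these values correspond to roughly 0, 11 and 11 reads in EZ and 5, 99 and 35 reads in DZ. When all genes above 0 in at least 1 library were fitted, VND6 was called higher in DZ against EZ (log2 difference 1.01, adjusted p = 0.0348). It was also called higher in DZ against MZ (1.30, adjusted p = 0.00659), with 0.29 in EZ against MZ (adjusted p = 0.502). These differences depend on the pseudocount, since the MZ values are 0, and give no fold change. BAG7, which overlaps VND6, moved the other way, and the part of the shared bases was not tested.

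The total VND level was higher outside the meristem and its make-up changed. The 7 VND genes summed to 9.91, 8.11 and 12.0 RPKM in MZ, 21.3, 14.8 and 29.5 RPKM in EZ and 22.1, 25.0 and 19.8 RPKM in DZ, and no EZ or DZ library was as low as an MZ library. VND3 made up 54.9% ± 4.65 of this sum in MZ, 40.3% ± 9.07 in EZ and 19.2% ± 4.56 in DZ (SD, n = 3 each). VND4 made up 6.73% ± 2.85, 17.8% ± 4.86 and 25.1% ± 0.711, and VND7 4.01% ± 1.47, 10.4% ± 2.62 and 15.2% ± 1.60. For VND3 the share in every DZ library (15.0% to 24.1%) was below that in every EZ library (29.9% to 46.8%), and for VND4 and VND7 every DZ share was above every EZ share. VND2 kept a share of 14.4% ± 4.63 in MZ, 15.5% ± 2.64 in EZ and 15.6% ± 2.58 in DZ. These shares were not tested.

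**Figure D3:**
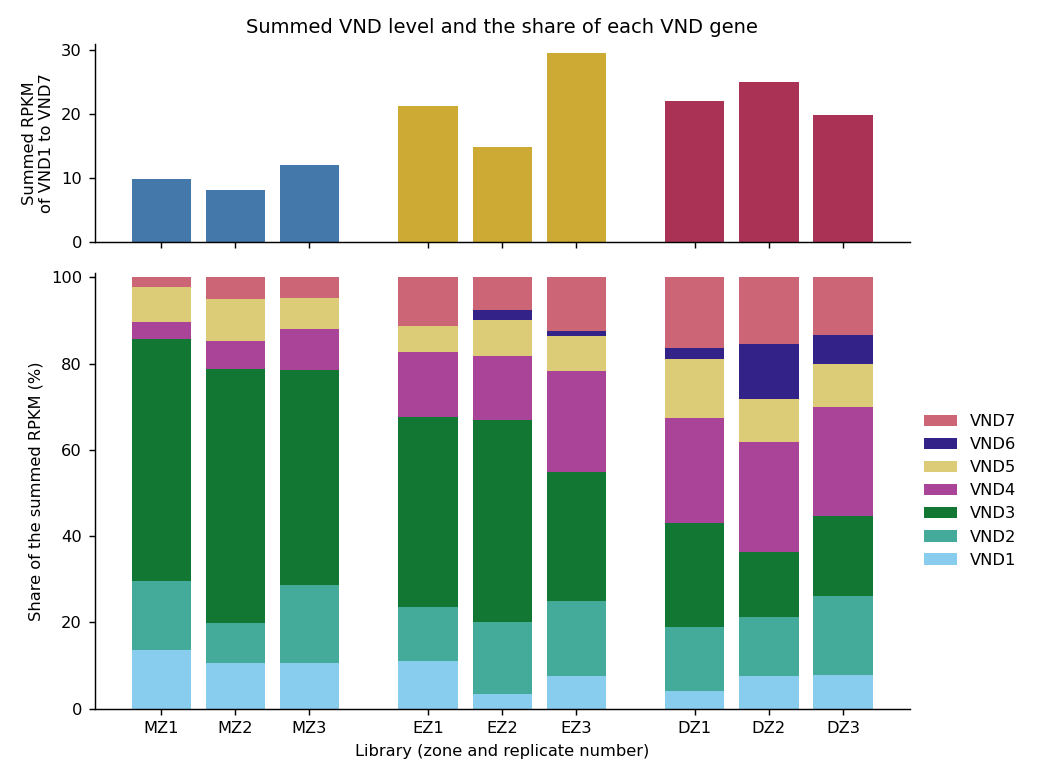
Summed RPKM of VND1 to VND7 in each of the 9 libraries (top, bars from 0) and the share of each VND gene in that sum, in percent (bottom). The VND3 share is 49.7% to 58.8% in MZ, 29.9% to 46.8% in EZ and 15.0% to 24.1% in DZ, and VND6 contributes up to 12.6% in DZ.

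VNI2, the repressor that binds VND7, had the widest range of the 10 genes in RPKM. It had 2.83, 2.06 and 4.54 RPKM in MZ, 40.2, 42.7 and 121 RPKM in EZ and 269, 271 and 308 RPKM in DZ. The 3 zones did not overlap, and EZ replicate 3 was the EZ library closest to DZ. The log2 difference was 3.91 ± 0.40 in EZ against MZ (adjusted p = 0.000502), 2.23 ± 0.40 in DZ against EZ (adjusted p = 0.00218) and 6.14 ± 0.40 in DZ against MZ (adjusted p = 1.23e-05). VNI2 kept all 3 calls in every alternative setting, with ranges of 3.40 to 4.26, 1.95 to 2.74 and 5.94 to 6.51. Its mean level was above that of 24.3% of the tested genes in MZ, 86.9% in EZ and 97.5% in DZ.

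VNI2 exceeded VND7, its binding partner, in every library. The ratio of VNI2 to VND7, both in RPKM and therefore per length, was 12.4, 5.10 and 8.02 in MZ, 16.8, 38.6 and 32.8 in EZ and 73.5, 69.3 and 116 in DZ. The zones did not overlap in this ratio, which was lowest in MZ and highest in DZ. The ratio compares transcripts in whole root pieces, and whether both are in the same cells was not measured.

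MYB46 and MYB83, the second tier of the network, were hardly detected in the meristem. MYB46 was listed at 0, 0.0358 and 0 RPKM in MZ, about 1 read in 3 libraries, and had 2.09, 1.60 and 11.1 RPKM in EZ and 12.3, 14.8 and 17.6 RPKM in DZ. MYB83 was listed at 0, 0 and 0.0721 RPKM in MZ, about 2 reads, and had 0.451, 0.490 and 3.34 RPKM in EZ and 2.42, 3.77 and 2.79 RPKM in DZ. For MYB46 the 3 zones did not overlap, while for MYB83 EZ replicate 3 lay inside the DZ range and the other EZ libraries lay between MZ and DZ.

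MYB46 was called higher in EZ against MZ (log2 difference 2.18 ± 0.51, adjusted p = 0.00724), in DZ against EZ (1.78 ± 0.51, adjusted p = 0.0185) and in DZ against MZ (3.96 ± 0.51, adjusted p = 0.000175). Because MZ was at or near 0, the sizes of the differences from MZ depend on the pseudocount: with 0.1 in place of 1, MYB46 was 4.97 in EZ against MZ and 7.07 in DZ against MZ, above VNI2 at 4.26 and 6.51, and MYB83 was 3.12 and 4.67. Without EZ replicate 3, MYB46 was 1.48 in EZ against MZ (adjusted p = 0.00129). The DZ against EZ call of MYB46 was lost without EZ replicate 1 (1.49, adjusted p = 0.0679), EZ replicate 2 (1.37, adjusted p = 0.0671), DZ replicate 2 (1.77, adjusted p = 0.0517) or DZ replicate 3 (1.66, adjusted p = 0.06), and without EZ replicate 3 the difference was 2.48 (adjusted p = 3.55e-05). MYB83 was called higher in EZ against MZ (1.04 ± 0.39, adjusted p = 0.0473) and in DZ against MZ (1.95 ± 0.39, adjusted p = 0.00157), and was 0.91 ± 0.39 in DZ against EZ (adjusted p = 0.0822). The EZ against MZ call of MYB83 was lost in 9 of the 13 alternative settings in which it was tested, among them leaving out any MZ library, any DZ library or EZ replicate 3. Over all 13 settings, kept calls included, the adjusted p in limma ranged from 0.00732 to 0.111. Without EZ replicate 3, MYB83 was 0.52 in EZ against MZ (adjusted p = 0.0415) and 1.43 in DZ against EZ (adjusted p = 0.000335), which was then a call. MYB46 was above MYB83 in every EZ and DZ library, by 4.63, 3.26 and 3.32 times in EZ and 5.09, 3.93 and 6.31 times in DZ.

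**Figure D4:**
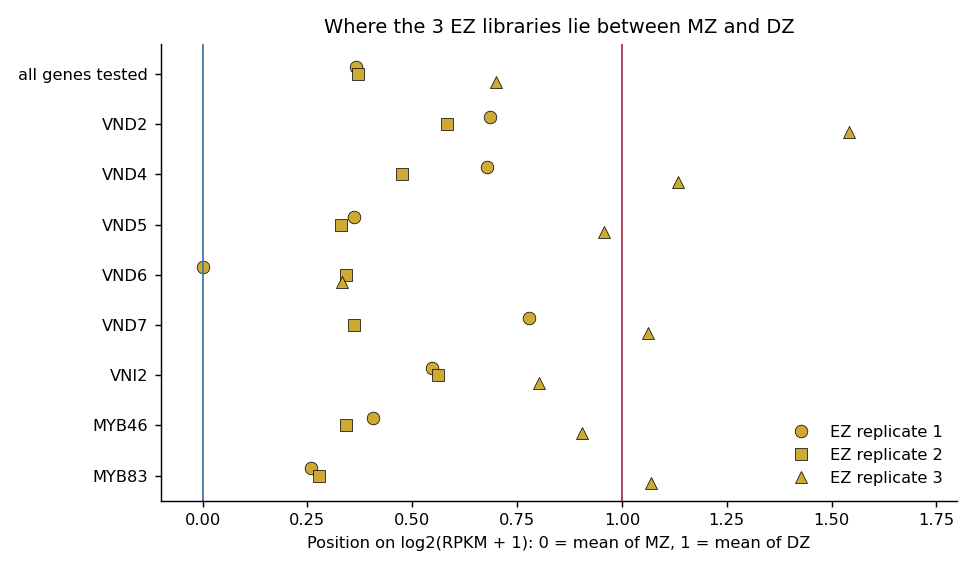
Position of EZ replicates 1 to 3 on a line from the mean of MZ (0) to the mean of DZ (1) on the log2(RPKM + 1) scale, for all tested genes together and for 8 switch genes. VND1 and VND3 are not shown because their MZ and DZ means lie close together, which puts their EZ libraries between -3.10 and 3.85. EZ replicate 3 lies to the right of both other EZ libraries in each row shown except VND6 (0, 0.342 and 0.332), at 0.7 for all genes, 0.802 for VNI2, 0.904 for MYB46 and beyond 1 for VND2, VND4, VND7 and MYB83.

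Among the 10 switches, the EZ libraries differed most in MYB83 and MYB46 when EZ replicate 3 was set against the other EZ libraries. Some wall and endodermal genes differed more, such as IRX15L at 19.3 times and CASP1 at 16.6 times. In EZ replicate 3 MYB83 was 7.10 times, MYB46 6.03 times, VNI2 2.92 times, VND4 2.55 times and VND7 2.11 times the mean of the other EZ libraries, whereas VND3 was lower there than in EZ replicate 1. On the line from MZ to DZ, MYB83 lay at 0.258, 0.278 and 1.07 in EZ replicates 1 to 3 and MYB46 at 0.406, 0.343 and 0.904. VND7 lay at 0.779, 0.361 and 1.06 and VND4 at 0.677, 0.475 and 1.13. In EZ replicates 1 and 2 alone, both MYB genes were thus closer to MZ than to DZ on this scale. So were all tested genes together, at 0.365 and 0.371, and VND5, at 0.360 and 0.331. VNI2 lay at 0.547 and 0.561. EZ replicate 3 was the highest EZ library for 7 of the 10 switches and for 35.4% of the tested genes. The endodermal and phloem marker sums were also highest in that EZ library. Of the 4 phloem markers, SUC2 (11.9 RPKM in EZ replicate 3, against 2.7 and 1.28 RPKM in EZ replicates 1 and 2) and SEOR1 were highest there, while APL (5.88 against 9.44 and 6.47 RPKM) and CALS7 were lowest there. The part of zone boundaries or cell make-up in these values was not tested.

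The 300 bases upstream of the annotated start are shown for VND4, VND7, MYB46 and MYB83, the genes with matches to NAC-binding or MYB-binding motifs whose levels were called in EZ against MZ and whose window holds no other annotated gene. The sequences were read from the TAIR10.1 genome, 5′ to 3′ on the strand of the gene, and end at the base before the first annotated transcript base. Capitals mark every match, on either strand, to the secondary wall NAC binding element SNBE or to SMRE, the 7-base element bound by MYB46 and MYB83, which reads ACC, then A or T, then A, then A or C, then C or T.
VND4: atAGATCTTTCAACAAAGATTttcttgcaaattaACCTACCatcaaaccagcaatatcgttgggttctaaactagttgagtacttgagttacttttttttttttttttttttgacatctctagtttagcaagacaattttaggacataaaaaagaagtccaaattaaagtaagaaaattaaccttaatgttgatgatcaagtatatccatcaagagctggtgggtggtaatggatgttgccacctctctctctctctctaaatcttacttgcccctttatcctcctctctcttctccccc
VND7: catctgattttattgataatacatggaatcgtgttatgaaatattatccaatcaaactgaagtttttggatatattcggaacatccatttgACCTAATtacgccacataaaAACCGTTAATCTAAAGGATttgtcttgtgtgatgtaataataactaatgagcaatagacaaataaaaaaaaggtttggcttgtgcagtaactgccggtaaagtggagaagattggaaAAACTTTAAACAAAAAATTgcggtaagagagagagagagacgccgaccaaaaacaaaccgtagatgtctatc
MYB46: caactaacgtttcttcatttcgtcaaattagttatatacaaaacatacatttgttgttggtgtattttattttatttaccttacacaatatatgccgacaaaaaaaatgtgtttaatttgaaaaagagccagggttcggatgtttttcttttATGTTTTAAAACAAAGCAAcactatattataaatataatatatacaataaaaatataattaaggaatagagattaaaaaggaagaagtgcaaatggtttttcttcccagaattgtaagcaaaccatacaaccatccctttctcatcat
MYB83: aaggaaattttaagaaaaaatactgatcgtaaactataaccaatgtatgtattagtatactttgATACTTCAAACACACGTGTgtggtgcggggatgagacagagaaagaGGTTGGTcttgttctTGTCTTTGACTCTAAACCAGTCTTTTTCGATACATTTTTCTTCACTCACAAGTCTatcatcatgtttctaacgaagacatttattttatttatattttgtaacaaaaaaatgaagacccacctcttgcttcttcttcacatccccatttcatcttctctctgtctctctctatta
The windows are chr1:4165929-4166228 (minus), chr1:27074402-27074701 (plus), chr5:4065076-4065375 (minus) and chr3:2578277-2578576 (minus). VND7 has a second annotated transcript with a later start, which was not used.

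MYB46 had 1 SNBE match and no SMRE match in its window, MYB83 had 5 SNBE matches and 1 SMRE match, VND7 had 3 and 1, and VND4 had 1 of each. In VND7 a pair of the SNBE matches are the same bases read on both strands. The same holds in MYB83, where 3 stretches of matches also meet end to end and share their border base. Among the 10 switches, 5 windows held an SNBE match (VNI2 was the other one) and 3 an SMRE match, against 48.7% and 33.9% of the windows of 27443 protein-coding genes. The tracheary element regulating element TERE was found in 0 of the 10 windows and in 0.692% of all windows. A match describes letters in the window and is no sign of binding.

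Ordered by mean level, the MZ list ran VND3, VNI2, VND2, VND1, VND5, VND4, VND7, MYB83, MYB46, VND6. VND3 was separated from VNI2, VND1 from VND5 and VND7 from MYB83, and the other neighbours overlapped in range. In EZ the order was VNI2, VND3, MYB46, VND4, VND2, VND7, VND1, VND5, MYB83, VND6, with gaps only below VNI2 and above VND6. In DZ it was VNI2, MYB46, VND4, VND3, VND2, VND7, MYB83, VND5, VND6, VND1, with gaps only below VNI2 and below MYB46. VND3 was thus the first gene in MZ and the fourth in DZ, and MYB46 was next to last in MZ and the second in DZ.

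The genes around the switches were taken from lists of known regulators and targets. In several lists some genes stayed below 1 RPKM in MZ and passed the filter through EZ and DZ libraries alone. Their calls of higher levels give no support of their own. Of 16 upstream vascular regulators, 1 was called higher and 4 lower in EZ against MZ, where 18.3% and 20.4% of all tested genes were. In DZ against EZ 2 were called higher and 1 lower, against 19.6% and 16.4% of all tested genes. In DZ against MZ 2 were called higher and 6 lower, against 29.8% and 32.3%. These counts were not tested against the shares and are not read as a result about the regulators. AHP6, an inhibitor of cytokinin signalling that marks protoxylem position, had 3.61, 1.23 and 0.893 RPKM in EZ against 25.7, 19.6 and 18.9 RPKM in MZ (log2 difference -3.05 ± 0.59, adjusted p = 0.00346). GATA12, a factor that can activate VND7, was highest in EZ: 1.30 ± 0.28 in EZ against MZ (adjusted p = 0.0049) and -2.05 ± 0.28 in DZ against EZ (adjusted p = 0.000552). LBD18 and LBD30, LBD proteins that act in a feedback loop with VND7, had 2.90 to 3.77 and 2.05 to 2.76 RPKM in DZ against 0.102 to 2.29 and 0.154 to 2.22 RPKM in EZ. LBD18 was called in DZ against EZ (1.38 ± 0.37, adjusted p = 0.0131) and LBD30 fell just short of 2-fold on the log2(RPKM + 1) scale (adjusted p = 0.0375). The number of upstream regulators called lower was 7 in EZ against MZ without EZ replicate 2, and in DZ against EZ it was 3 without EZ replicate 3, 5 without DZ replicate 1 and 2 without DZ replicate 2.

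The fibre switches that share their targets with the VND genes were hardly detected: NST1, NST2 and NST3 reached at most 0.2, 0.0355 and 0.0841 RPKM in any library and were not tested. SND2 and SND3, NAC genes that act below the switches, were not called in EZ against MZ and were called higher in DZ against EZ (1.92 ± 0.22, adjusted p = 0.00026, and 1.26 ± 0.29, adjusted p = 0.00725). XND1, a NAC repressor of vessel differentiation, was called higher in EZ against MZ (1.7 ± 0.32, adjusted p = 0.00281) with 3.91, 4.2 and 2.78 RPKM in EZ against 0.152, 0.0447 and 1.33 RPKM in MZ. Its DZ against EZ difference of -0.66 ± 0.32 (adjusted p = 0.108) ran opposite to that of VNI2, 2.23 ± 0.40; the difference between the genes was not tested. Of the other secondary wall NACs, 3 of 6 were tested: 1, 2 and 3 were called higher in EZ against MZ, DZ against EZ and DZ against MZ, and none lower, also at an unadjusted p under 0.05 in limma. The shares of all tested genes called higher were 18.3%, 19.6% and 29.8%, and those called lower 20.4%, 16.4% and 32.3%. In DZ against EZ the count of these NACs was 1 without any 1 of the DZ libraries, since SND2 reached 1 RPKM in the DZ libraries alone and was then not tested. In DZ against MZ the count was 1 without DZ replicate 1, where SND2 was not tested and XND1, at 0.92 (adjusted p = 0.0481), was under 2-fold on the log2(RPKM + 1) scale.

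Below MYB46 and MYB83, 12 of 14 downstream wall transcription factors were tested. In EZ against MZ 4 were called higher, in DZ against EZ 10 and in DZ against MZ 10, and none lower in any of the 3, also at an unadjusted p under 0.05 in limma. The shares of all tested genes called higher were 18.3%, 19.6% and 29.8%, and those called lower 20.4%, 16.4% and 32.3%. The counts were not tested against these shares. MYB43 and MYB20 were called along with MYB46 in EZ against MZ (2.95 ± 0.44, adjusted p = 0.00131, and 2.58 ± 0.39, adjusted p = 0.00134). MYB4 and KNAT7, factors that restrain phenylpropanoid and wall genes, were called in DZ against EZ (4.48 ± 0.74, adjusted p = 0.00135, and 3.77 ± 0.62, adjusted p = 0.00136). Their EZ against MZ differences of 1.85 ± 0.74 (adjusted p = 0.0585) and 1.58 ± 0.62 (adjusted p = 0.0564) were over 2-fold and did not pass the test. Without DZ replicate 2, 6 factors were called in DZ against EZ; MYB42, MYB54 and MYB103 reached 1 RPKM in the DZ libraries alone and drop out of the test without any one of those. MYB20, MYB52, KNAT7 and MYB4 passed the filter through EZ and DZ libraries alone, so the counts of this list give no support of their own. MYB69 and MYB85 stayed below 1 RPKM.

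Among the 14 genes of secondary wall synthesis, 7 were called higher in EZ against MZ and none lower. In DZ against EZ and in DZ against MZ 13 were called higher and none lower. Of all tested genes, 18.3%, 19.6% and 29.8% were called higher in the 3 comparisons, and 20.4%, 16.4% and 32.3% lower. At an unadjusted p under 0.05 in limma 1 (IRX14) was lower, in DZ against EZ. CESA8, COBL4, TED6, TED7, IRX9, FRA8, IRX15L and LAC4 passed the filter through EZ and DZ libraries alone. The counts of this list therefore describe the genes and give no support of their own. CESA8, a cellulose synthase subunit of the secondary wall, had 0.145, 0.0427 and 0.318 RPKM in MZ, 2.22, 1.67 and 12.8 RPKM in EZ and 20.5, 26.2 and 19.2 RPKM in DZ, so that EZ replicate 3 was the highest EZ library as for MYB46. Of the 5 cell death genes of vessel elements, 2 were called higher in EZ against MZ, 5 in DZ against EZ and 5 in DZ against MZ, with none lower, also at an unadjusted p under 0.05 in limma. The vessel proteases XCP1 and XCP2 were the pair called in EZ against MZ (4.03 ± 0.62, adjusted p = 0.00138, and 4.09 ± 0.56, adjusted p = 0.000945). The cell death count in DZ against EZ was 1 without EZ replicate 1 or DZ replicate 2, 2 without EZ replicate 2 or DZ replicate 3 and 3 without DZ replicate 1, and in DZ against MZ it was 3 without MZ replicate 1, MZ replicate 3 or any DZ library. The nuclease RNS3 and the metacaspase MC9 were also at 11.0 and 8.47 RPKM in MZ replicate 2, the library with the highest summed root cap markers (81.3 RPKM, against 19.3 RPKM in the lowest MZ library). Of 7 wall pattern genes, 4 were called higher in EZ against MZ, 2 higher and 1 lower in DZ against EZ, and 3 higher in DZ against MZ. ROPGAP3, which limits the area of active ROP protein, was called higher in EZ against MZ (1.97 ± 0.24, adjusted p = 0.000661) and lower in DZ against EZ (-1.37 ± 0.24, adjusted p = 0.0018); VND3 was likewise highest in EZ.

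**Figure D5:**
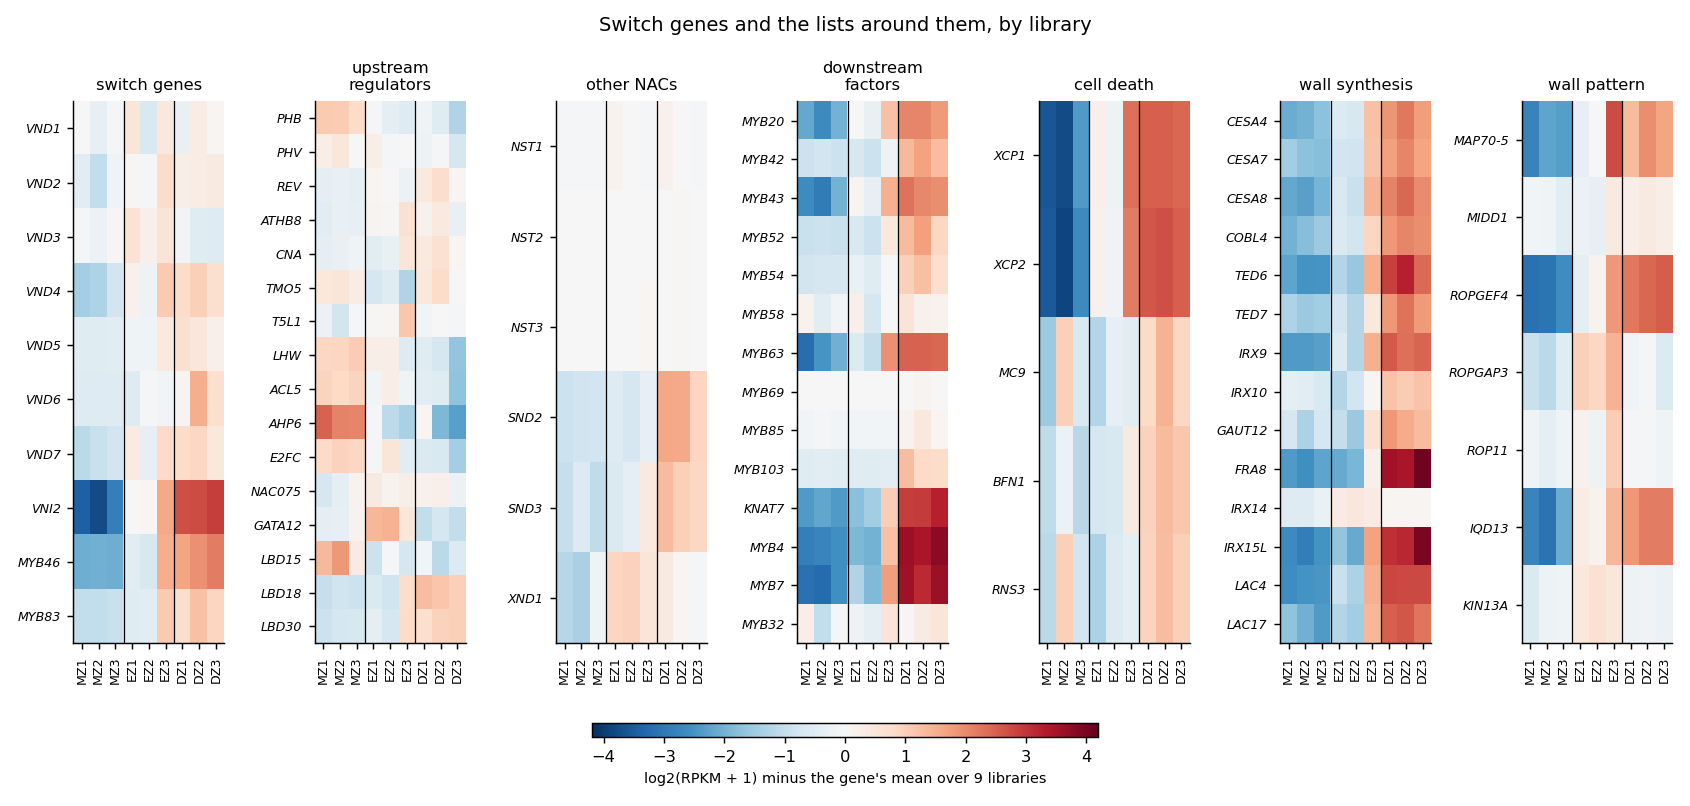
log2(RPKM + 1) minus the mean of the gene over the 9 libraries (blue below, red above) for the switch genes and 6 lists of related genes, with libraries of MZ, EZ and DZ from left to right. VNI2 has the strongest contrast of the switches, NST1 to NST3 are flat because they reach at most 0.2 RPKM, and most wall synthesis genes are highest in DZ, with EZ replicate 3 closer to DZ than the other EZ libraries.

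The genes with the most similar profiles were found for VND6, VND7, VNI2 and MYB46 as those with the smallest root mean square difference of centred log2(RPKM + 1) over the 9 libraries. For VNI2, whose own SD was 2.58, these were DUR (0.20), PCR2 (0.24), the vessel protease XCP2 (0.27), AT5G19230 (0.29) and AT2G41970 (0.30). For MYB46 (SD 1.72) they were AT1G62320 (0.12), AT4G05150 (0.18), TBL3 (0.21), AT2G15760 (0.22) and AT1G29020 (0.22). For VND7 (SD 0.76) they were AT1G66235, AT5G42680, AT3G46270, AT1G72920 and AT4G11570 at 0.16 to 0.18, and VND4 ranked 9 with 0.21. For VND6 (SD 0.66) they were DUR3 (0.16), AT4G02850 (0.20), PEPR1 (0.21), AT4G29700 (0.22) and UMAMIT41 (0.24), and no other switch gene was nearer than VND5, with 0.48 at rank 1314.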

How the data were processed

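Libraries were made from root RNA with an Illumina kit, per the labels' protocols. FastQC and TopHat2 are named in the submitters' processing notes, and reads were mapped with the Ensembl release 19 annotation of TAIR10, per the labels. The counting tool, the gene lengths, the filters and the handling of shared reads are not given in the texts used here. The authors deposited RPKM values in a table of 3 zones, which was used; the other table of the series was not used. Columns were matched to samples by zone and replicate number.

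Here log2(RPKM + 1) of the 9 Arabidopsis libraries was fitted with limma 3.58.1 (R 4.3.3; mean trend, robust estimation). Genes that reached 1 RPKM in 3 or more libraries (19640) were tested two-sided, with Benjamini-Hochberg adjustment over these genes. Errors of log2 differences are limma's standard errors. The procedure was tested on simulated data. Gene models, overlaps and upstream sequence came from the RefSeq annotation of TAIR10.1, matched by locus name. Depth was estimated from low values with the exon lengths of that annotation, so read numbers are approximate. All 92 listed genes were in the table. Python 3.11.15, pandas 2.3.3, NumPy 2.4.6, Biopython 1.88 and matplotlib 3.10.9 were used.

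All 10 members are named in every comparison. From every other list the counts are given, and up to 4 called genes with the largest difference per comparison could be named; LBD30, MYB42, MYB54, MYB69, MYB85, MYB103, IRX14, NST1, NST2, NST3 and the values of MC9 and RNS3 in MZ were chosen after their values were seen. The alternatives tried are given in the closing section. The members, lists and tests were chosen with earlier results of these data known.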

Additional observations from a re-analysis of the deposited data

How the results depend on the processing

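Fits were repeated in 15 alternative settings: a pseudocount of 0.1, no filter, quantile normalization, a replicate block, only the 6 libraries compared, without the 3 libraries numbered 3, and without each of the 9 libraries. With no filter, all genes above 0 in at least 1 library were kept. Quantile normalization lowered the median of all genes by 0.06 to 0.09. The switches called higher in EZ against MZ numbered 3 with quantile normalization and 3 to 5 without single libraries, and in DZ against EZ 1 to 3 without single libraries. Reversals concerned VND1 and VND2, which were not called: in DZ against EZ VND1 was 0.07 without the libraries numbered 3 and -0.44 to 0.13 without single libraries, VND2 was -0.14 with quantile normalization and -0.10 to 0.32 without single libraries, and in DZ against MZ VND1 was -0.26 with quantile normalization; the cause was not tested. VND7 in EZ against MZ was 0.94 with quantile normalization and lost its call. MYB83 in EZ against MZ lost its call with quantile normalization (adjusted p = 0.0914) and with no filter (adjusted p = 0.0668). With a pseudocount of 0.1, VND2 was called in EZ against MZ and in DZ against MZ, and VND5 in DZ against MZ. Without the libraries numbered 3, VND2 (1.03) and VND5 (1.06) were called in DZ against MZ. List counts that moved by over 1.5 times were, with a pseudocount of 0.1, 7 in place of 4 downstream factors and 2 in place of 1 other NAC called higher in EZ against MZ, and in DZ against EZ 3 in place of 5 cell death genes (3 also with no filter), 1 in place of 2 wall pattern genes called higher and 2 in place of 1 upstream regulator called lower (2 also with quantile normalization). Without the libraries numbered 3, the counts called higher in DZ against EZ were 6 in place of 10 downstream factors, 1 in place of 2 other NACs and 1 in place of 2 upstream regulators, and in DZ against MZ 6 in place of 10 downstream factors, 3 in place of 5 cell death genes and 0 in place of 2 upstream regulators. Deviations of libraries with the same number from their zone means correlated at 0.088 to 0.458 (9 pairs) and of different numbers at -0.433 to 0.224, and 17 of 18 best matches had the same number, a hint from the data, not from the design; 1 pair was under 0.1, so the numbers were not taken as pairs. With the replicate block the counts of switches were 5, 2 and 5 and no call of a switch was lost or gained, and 3667 and 4111 genes were called higher and lower in EZ against MZ. The number of all genes called lower in DZ against EZ was 3213, and ranged from 2441 to 4409 over the settings. In the libraries numbered 1, with 6.92 to 7.57 M reads, 1 read on 1 kilobase is worth 0.132 to 0.144 RPKM, so MZ levels of MYB46, MYB83 and VND6 are not resolved from 0.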
